A study of Mus musculus with 57 samples.

Results

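Nuclear genes for subunits of respiratory complex I were followed in libraries from mouse brain cells. The genes were taken by their symbols, Ndufa, Ndufab, Ndufb, Ndufc, Ndufs or Ndufv followed by a digit, without a pseudogene suffix, and had to reach a normalised read count of 35 in at least 3 libraries. This left 39 of the 45337 genes in the table. Ndufa4l2 had the fewest libraries of the members chosen, with 25 of 57 libraries at or above 35 and a highest value of 450.6. Ndufa11b (no library reached 35, highest 34.5) and Ndufs6b (1 library, highest 36.2) were just outside the level rule. No gene is listed under the symbol Ndufb1.

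The study compared mice carrying Sod1G86R, a mutant form of superoxide dismutase 1 used to model amyotrophic lateral sclerosis, with mice labelled as wild type (WT). From these animals it profiled CSN, the usual abbreviation for corticospinal neurons, the output neurons of the motor cortex that project to the spinal cord, and a second cell population labelled only as control cells. Labelled ages were 30, 60, 90 and 105, read here as days. In that order of ages, CSN libraries numbered 3, 4, 4 and 2 for Sod1G86R and 4 at each age for WT, and control cell libraries numbered 3, 3, 4 and 4 for Sod1G86R and 4, 2, 4 and 4 for WT. The 57 libraries came from 32 animals, 25 of which gave both cell types. The labels give neither the promoter of the transgene nor the cells that make up the control population.

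Complex I sits in the inner mitochondrial membrane, takes electrons from NADH, passes them to ubiquinone and pumps protons out of the matrix. Its core subunits in the matrix arm (N module for NADH oxidation, Q module for ubiquinone reduction) are encoded in the nucleus, whereas the proton-pumping core of the membrane arm is encoded by the mitochondrial mt-Nd genes. Accessory subunits, all nuclear, surround the core and are needed to assemble and stabilise it. Neurons rely heavily on oxidative phosphorylation.

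Libraries held 22182627 to 64231716 reads assigned to genes, and the correlation between replicates of a group was 0.935 to 0.990. Sod1 reads separated the genotypes without overlap in both cell types, from 80216 to 172179 in Sod1G86R CSN against 1806 to 4562 in WT CSN, and from 38567 to 155479 in Sod1G86R control cells against 1611 to 4244 in WT control cells. Summed markers of deep-layer projection neurons were 83303 to 119975 in Sod1G86R CSN and 59677 to 107198 in WT CSN, against 4932 to 18385 in Sod1G86R control cells and 3405 to 11878 in WT control cells. The labelled cell type was therefore visible in every CSN library. Oligodendrocyte markers summed to a median of 426045 in Sod1G86R and 528643 in WT control cells. In CSN they summed to 33733 in Sod1G86R and 73644 in WT, so a glial signal was also present there. Control cells held a neuronal signal as well. Summed pan-neuronal markers had medians of 304224 in Sod1G86R and 236352 in WT control cells, against 388367 and 299180 in CSN. Upper-layer markers had medians of 36298 in Sod1G86R and 38596 in WT control cells, against 2651 and 2399.5 in CSN.

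Windows from 250 bases before to 50 bases after the annotated start are given here for 5 genes, picked by their genotype difference in CSN: the members with the largest differences that have a window (Ndufv1, Ndufa9, Ndufa10, Ndufs7) and the one with the smallest (Ndufa5). They are from the RefSeq annotation of GRCm38.p6 and read 5′ to 3′ on the strand of the gene. Capitals mark a match to AAGATGGCG, the letters of a YY1-type site, or to GCGCANGCG, those of an NRF1-type site, each searched on both strands.
Ndufv1 (chr19:4012706-4013005, minus strand): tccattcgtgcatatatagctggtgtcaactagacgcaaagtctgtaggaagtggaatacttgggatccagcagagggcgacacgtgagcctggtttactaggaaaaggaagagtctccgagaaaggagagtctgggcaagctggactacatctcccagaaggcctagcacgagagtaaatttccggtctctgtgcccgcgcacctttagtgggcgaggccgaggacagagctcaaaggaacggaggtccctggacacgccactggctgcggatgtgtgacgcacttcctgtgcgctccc
Ndufa9 (chr6:126849095-126849394, minus strand): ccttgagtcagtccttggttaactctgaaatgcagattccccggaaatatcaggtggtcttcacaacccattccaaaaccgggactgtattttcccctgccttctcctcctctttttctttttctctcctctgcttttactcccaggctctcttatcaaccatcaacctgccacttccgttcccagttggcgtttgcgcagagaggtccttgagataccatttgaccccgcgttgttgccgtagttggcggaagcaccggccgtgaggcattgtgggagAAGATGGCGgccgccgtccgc
Ndufa10 (chr1:92473709-92474008, minus strand): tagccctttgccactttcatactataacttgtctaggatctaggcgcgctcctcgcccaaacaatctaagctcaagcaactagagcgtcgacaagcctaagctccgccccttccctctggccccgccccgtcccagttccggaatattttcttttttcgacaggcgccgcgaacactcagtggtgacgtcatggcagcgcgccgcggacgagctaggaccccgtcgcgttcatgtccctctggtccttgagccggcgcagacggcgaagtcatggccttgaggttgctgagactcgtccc
Ndufs7 (chr10:80249199-80249498, plus strand): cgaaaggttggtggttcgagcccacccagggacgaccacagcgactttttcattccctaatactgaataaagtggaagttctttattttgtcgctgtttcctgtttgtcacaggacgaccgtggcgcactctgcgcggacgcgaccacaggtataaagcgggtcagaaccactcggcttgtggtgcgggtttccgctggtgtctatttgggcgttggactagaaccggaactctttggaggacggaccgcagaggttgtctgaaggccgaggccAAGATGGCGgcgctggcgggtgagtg
Ndufa5 (chr6:24527477-24527776, minus strand): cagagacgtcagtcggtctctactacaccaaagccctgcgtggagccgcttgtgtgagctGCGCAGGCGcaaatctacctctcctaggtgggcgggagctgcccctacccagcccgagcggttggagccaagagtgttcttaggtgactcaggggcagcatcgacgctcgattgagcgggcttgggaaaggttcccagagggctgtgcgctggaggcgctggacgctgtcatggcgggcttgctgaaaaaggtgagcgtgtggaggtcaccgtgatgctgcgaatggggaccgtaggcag
In Ndufa9 and Ndufs7 the YY1-type letters began at positions 30 and 25 after the start. In Ndufa5 the NRF1-type letters began 190 bases before it (position -190, in the first of its pair of annotated windows, the one shown). In the other Ndufa5 window the same letters began at position -26. A window was found for 33 of the 39 members. The YY1-type letters were in windows of 5 of these 33 (15.2%: Ndufa9, Ndufc1, Ndufs4, Ndufs6, Ndufs7), against 1.40% of all 32851 windows in the annotation and 3.01% of the genes tested that have one. The NRF1-type letters were in 8 members (24.2%: Ndufa5, Ndufa6, Ndufa8, Ndufa11, Ndufb4, Ndufb10, Ndufs5, Ndufs6), against 6.25% of all windows and 13.4% of genes tested. CCGGAAG, the letters of an ETS-type site, were in 4 members (12.1%: Ndufb6, Ndufb7, Ndufs3, Ndufs8), against 8.86% of all windows and 17.3% of genes tested. TCAAGGTCA, those of an ERR-type site, were in 0 members, against 0.423% of all windows. Letters of the 4 kinds can overlap at their ends, but in the member windows no match overlapped one of another kind, and Ndufs6 was the one gene with more than 1 kind. A match describes the sequence and is not evidence of binding.

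Levels of different members can be set side by side only per kilobase of transcript. On that scale Ndufa4, which was named for complex I and is now placed with complex IV, was highest, with 40624 ± 10379 normalised reads per kilobase in Sod1G86R CSN (SD, n = 13) and 34739 ± 13618 in WT CSN (SD, n = 16). Ndufb8, a subunit of the distal membrane arm, came next with 38030 ± 12360 and 26218 ± 10335 in the same groups. The spreads of these neighbours overlapped. Among the N module core, Ndufv2 had 12581 ± 4265 per kilobase in Sod1G86R and 8242 ± 2601 in WT CSN, whereas Ndufs1 had 3266 ± 1071 and 2044 ± 390. Ndufa4l2, a paralogue of Ndufa4 known from other tissues as a hypoxia-induced gene, was lowest with 8.44 ± 12.0 in Sod1G86R and 10.9 ± 17.8 in WT CSN. Each library amplified full-length cDNA, so a per-kilobase value still carries any bias of coverage along a transcript.

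The study's main question for these genes is whether CSN of Sod1G86R mice differ from CSN of WT mice. Averaged over the 4 ages, 13 complex I genes were higher in Sod1G86R CSN at an adjusted p under 0.05 and none was lower, by limma on log2(value + 34.6) with Benjamini-Hochberg adjustment over all 19093 genes tested. Of all genes tested 12.8% were higher and 6.31% lower, so 13 of the 38 members tested is a larger share than the background. Ndufa4l2 did not reach the level filter in CSN and was not tested. The fold change was above 0 for all 38 tested members, against 44.5% of all genes. The members' median was 0.39 on the log2 scale, against -0.05 over all genes. These p-values measure the spread between the libraries of a group.

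The N module, where NADH is oxidised, was higher throughout its nuclear core. Ndufv1, the subunit that binds FMN and NADH (ENSMUSG00000037916, chromosome 19, 4007384 to 4012806, minus strand), had a lowest, median and highest normalised count of 5509, 9844 and 16624 in Sod1G86R CSN, against 3329, 4887 and 7235 in WT CSN. Of 13 Sod1G86R libraries 11 lay above every WT library, although the ranges overlapped. The log2 fold change was 0.99 (SE 0.142, adjusted p = 0.000109 by limma). Ndufs1, the largest subunit of the complex and a carrier of iron-sulphur clusters, had 3711, 8960 and 12869 in Sod1G86R CSN against 3528, 5493 and 7523 in WT CSN. It was 0.63 higher on the log2 scale (SE 0.139, adjusted p = 0.00247), with 9 libraries above every WT library. Ndufv2, another iron-sulphur subunit, had medians of 22156 in Sod1G86R and 13088 in WT CSN and a log2 fold change of 0.65 (adjusted p = 0.00585).

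Core subunits of the Q module, where ubiquinone is reduced, were higher as well. Ndufs7, which holds the last iron-sulphur cluster before ubiquinone, had a lowest, median and highest count of 9838, 15400 and 20075 in Sod1G86R CSN against 4269, 9204 and 13124 in WT CSN, a log2 fold change of 0.73 (SE 0.135, adjusted p = 0.000621). Ndufs8, also an iron-sulphur subunit, and Ndufs3, a core subunit without a cofactor, were 0.60 and 0.54 higher on the log2 scale (adjusted p = 0.00495 and 0.00183).

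Of 9 accessory subunits in the matrix arm 2 were higher, with 12.8% of all genes higher. Ndufa9 (ENSMUSG00000000399, chromosome 6, 126821721 to 126849136, minus strand), a nucleotide-binding subunit near the junction of the arms, had the largest fold change of all members. Its lowest, median and highest counts were 4812, 10930 and 17176 in Sod1G86R CSN, against 3226, 5389 and 7320 in WT CSN. In 11 of 13 Sod1G86R libraries it exceeded every WT library, while the other two, both from 60 days, lay within the WT range. Its log2 fold change was 1.03 (SE 0.162, adjusted p = 0.000211). Ndufs4, whose loss in mice gives a Leigh-like encephalopathy, was 0.39 higher (SE 0.134, adjusted p = 0.0413), and it lost that call when any one of 16 of the 29 libraries was left out. The median of the 9 was 0.24.

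In the proximal membrane arm 1 of 9 was higher, near the 12.8% of all genes, so the count shows no raised share for that arm. Ndufa10 (ENSMUSG00000026260, chromosome 1, 92439010 to 92473860, minus strand), an accessory subunit related to nucleoside kinases, had a lowest, median and highest count of 11705, 17940 and 24000 in Sod1G86R CSN, against 7234, 11540 and 16820 in WT CSN. All Sod1G86R values were above the WT median. The log2 fold change was 0.70 (SE 0.119, adjusted p = 0.000351). Of 10 in the distal membrane arm 3 were higher, with the same 12.8% of all genes higher. They were Ndufb10 by 0.59 (adjusted p = 0.00255 by limma), Ndufb5 by 0.61 (adjusted p = 0.00771) and Ndufb8 by 0.61 (adjusted p = 0.0179). Ndufb5 shares 616 exonic bases with Mrpl47 on the opposite strand, and since strand was lost in library preparation the reads of that stretch cannot be assigned to either gene. Ndufb8 lost its call without the 105-day Sod1G86R CSN library of replicate 13 (adjusted p = 0.0767).

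**Figure D1:**
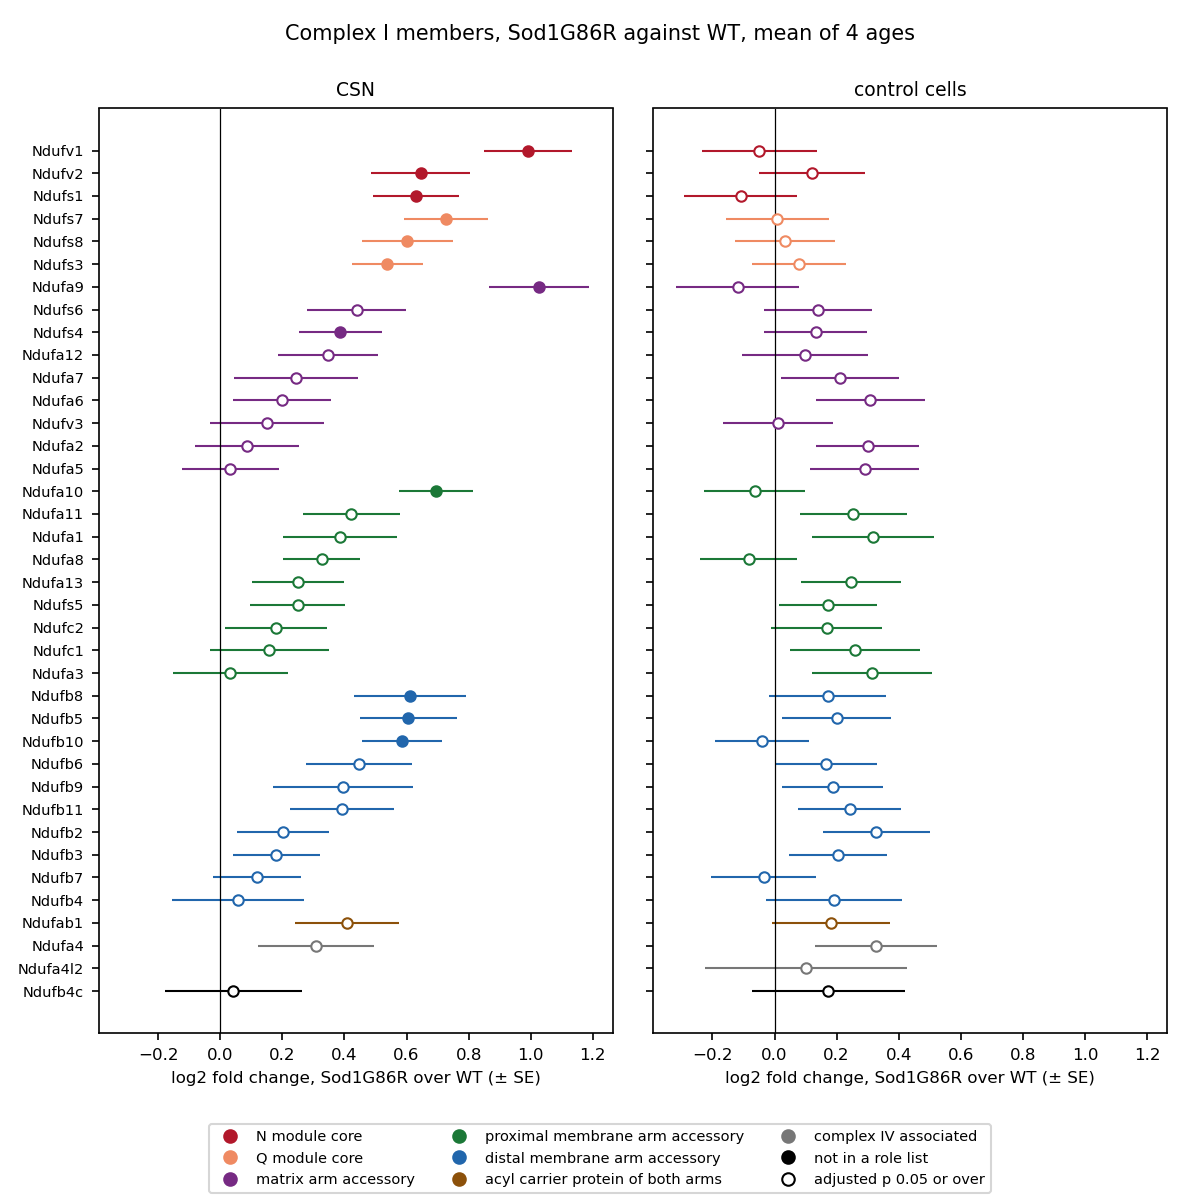
The log2 fold change (± SE) of complex I genes is plotted for Sod1G86R over WT, averaged over 4 ages, in CSN (left) and in control cells (right), coloured by role, with filled points for an adjusted p under 0.05. The N and Q module core genes shown are filled in CSN, at 0.54 to 0.99, and no point is filled in control cells.

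The remaining members of the list showed small or uncertain differences in CSN. Ndufs6, a zinc-binding matrix arm subunit, was 0.44 higher (adjusted p = 0.0516) and Ndufa11, an integral membrane subunit, 0.42 higher (adjusted p = 0.0573), both short of the threshold. Ndufab1, the mitochondrial acyl carrier protein, had 0.41 (adjusted p = 0.0829) and Ndufa4 0.31 (adjusted p = 0.242). The smallest difference was in Ndufa5, a matrix arm subunit, with a lowest, median and highest count of 6450, 9454 and 13281 in Sod1G86R CSN, against 5032, 9566 and 15281 in WT CSN. No Sod1G86R library was above every WT library. Its log2 fold change was 0.03 (SE 0.156, adjusted p = 0.899), and the sign turned under several scalings. Ndufa3, a small membrane arm subunit, had 0.03 (SE 0.186, adjusted p = 0.914).

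Ndufb4c (ENSMUSG00000083380, chromosome 15, 73809507 to 73809896, minus strand) is annotated as a processed pseudogene, although its symbol has no such suffix. It had 21.3% ± 3.08 of the Ndufb4 count in Sod1G86R CSN (SD, n = 13) and 21.3% ± 2.80 in WT CSN (SD, n = 16). In control cells the ratios were 22.8% ± 1.89 in Sod1G86R and 22.8% ± 3.05 in WT (SD, n = 14 each). The values of this pair are therefore uncertain, since reads may be shared between the copies. Log2 fold changes in CSN were 0.04 for Ndufb4c (adjusted p = 0.910) and 0.06 for Ndufb4 (adjusted p = 0.865).

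**Figure D2:**
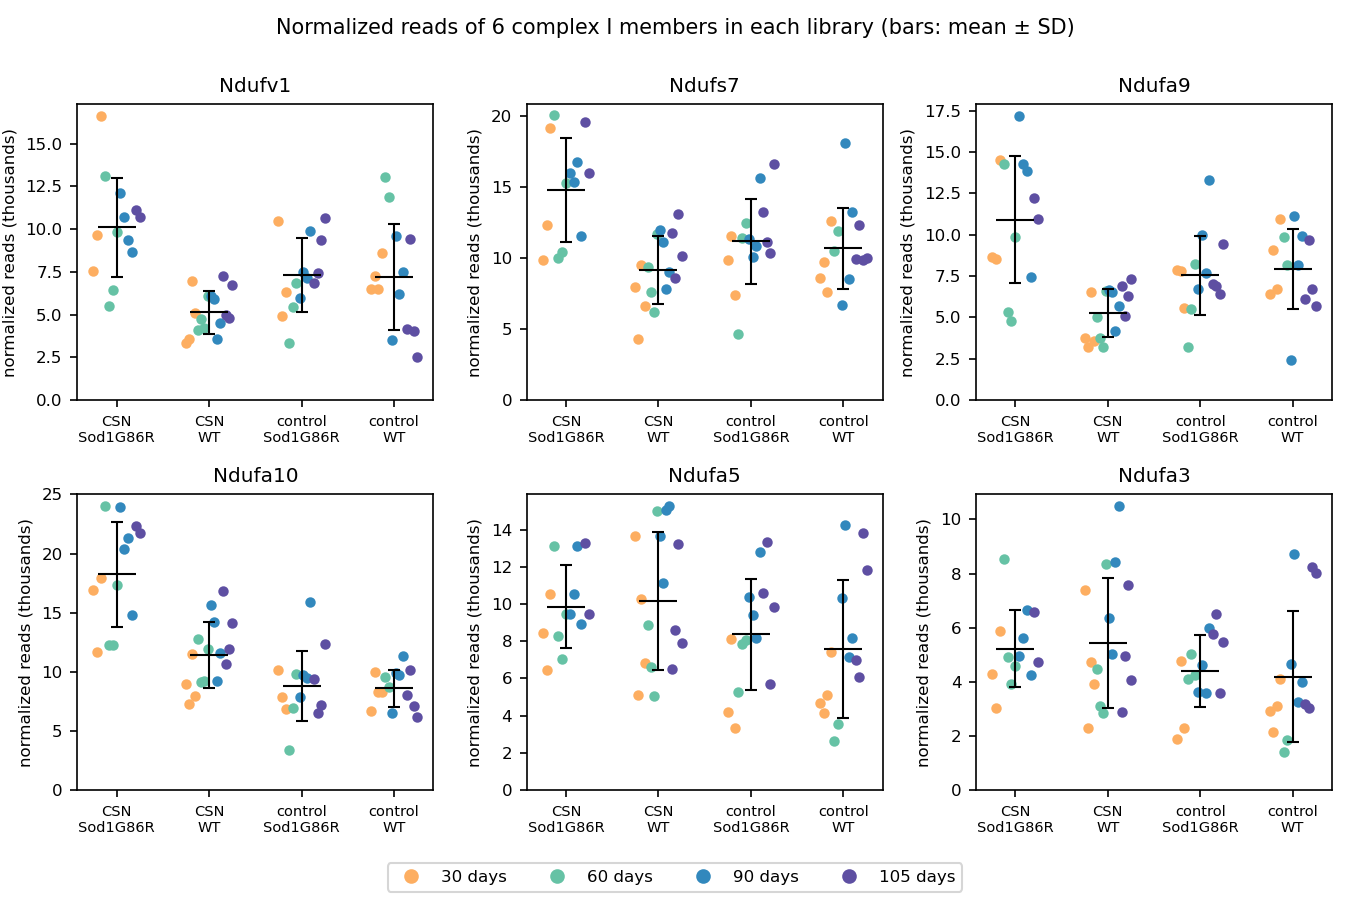
Normalised read counts (in units of 1000 reads) of 6 complex I genes are shown for every library, coloured by age, with bars for mean ± SD. Ndufv1, Ndufs7, Ndufa9 and Ndufa10 stand higher in Sod1G86R CSN than in WT CSN, whereas Ndufa5 and Ndufa3 overlap across their whole ranges.

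Other measures of the same CSN libraries are given beside this difference. Reads from the mitochondrial genome made up 5.95% ± 2.31 of the reads in Sod1G86R CSN (SD, n = 13, range 3.26% to 10.6%) and 9.41% ± 2.92 in WT CSN (SD, n = 16, range 5.68% to 18.1%). Summed pan-neuronal markers had a median of 388367 in Sod1G86R (range 279691 to 507986) and 299180 in WT CSN (range 236310 to 379211). Summed oligodendrocyte markers ranged from 8088 to 105333 in Sod1G86R and from 4128 to 311407 in WT CSN, and summed microglial markers had medians of 3063 in Sod1G86R and 5760 in WT CSN. GABAergic markers had medians of 1369 in Sod1G86R (range 267 to 4185) and 527 in WT CSN (range 217 to 2651), and astrocyte markers 40013 in Sod1G86R (range 19261 to 95508) and 36526 in WT CSN (range 17361 to 122638). Oligodendrocyte precursor markers had medians of 470.2 in Sod1G86R and 838 in WT CSN, endothelial markers 489 in Sod1G86R and 784 in WT CSN, and upper-layer markers 2651 in Sod1G86R and 2399.5 in WT CSN. No marker of these lists was at 0 in every library. When the mitochondrial share entered the fit, no member was called, Ndufv1 had a log2 fold change of 0.67 (adjusted p = 0.101) and the median of the members was 0.07. With the glial marker level as a covariate 18 members were called. The part of these measures in the genotype difference was otherwise not tested, and in pooled material fewer cells of a type and less RNA per cell cannot be told apart.

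Complex I is built from both genomes, and the mitochondrially encoded subunits went the other way in CSN, where 6.31% of all genes were lower. Of 7 mt-Nd genes 6 were tested and 4 were lower in Sod1G86R: mt-Nd4 by a log2 fold change of -0.63 (adjusted p = 0.0141), mt-Nd5 by -0.59 (adjusted p = 0.0166), mt-Nd2 by -0.58 (adjusted p = 0.0203) and mt-Nd6 by -0.73 (adjusted p = 0.0219). For mt-Nd1 and mt-Nd3 the values were -0.46 (adjusted p = 0.0728) and -0.36 (adjusted p = 0.122), and mt-Nd4l, with counts of at most 17.1, was below the filter. Counts of mt-Nd4 had medians of 72124 in Sod1G86R and 100386 in WT CSN, with overlapping ranges. These genes are part of the mitochondrial share above and are not independent of it.

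Genes that build or accompany the complex are given for comparison, from lists chosen for their function. Of all genes 12.8% were higher and 6.31% lower in Sod1G86R CSN. Of 15 assembly factors 6 were higher in Sod1G86R CSN and none lower, led by Ndufaf5 (log2 fold change 0.60, adjusted p = 0.00122), which modifies the Q module, and Ndufaf7 (0.56, adjusted p = 0.00158), a methyltransferase. Among 38 nuclear subunits of complexes II to V 18 were higher and none lower, led by Uqcrc1 of complex III (1.06, adjusted p = 8.66e-05) and the ATP synthase subunit Atp5c1 (0.97, adjusted p = 0.000314), with a median of 0.35 over the list. None of 11 regulators of mitochondrial gene expression was called by limma, and 3 of them had an unadjusted p under 0.05, without a share of all genes at that level.

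Most of the members called in CSN have longer transcripts. Among members whose principal transcript exceeds 1000 bases 10 of 16 were higher in Sod1G86R CSN and the median log2 fold change was 0.57. Among the 22 tested members up to 1000 bases 3 were higher (13.6%), near the 14.1% of other genes that short. The median of these 22 was 0.28. They include Ndufb4c by its exonic length, as it has no principal transcript. The same split of all other genes with a principal transcript gave medians of 0.01 over 1000 bases (n = 13806, of which 2211 higher) and 0.09 up to it (n = 814, of which 115 higher). In control cells the medians were 0.09 for the 16 long and 0.19 for the 23 short members, and all other genes had the same order, with -0.07 (n = 15135) and 0.08 (n = 924). Role and length overlap in part, since 6 of the 7 core subunits have transcripts over 1000 bases. Among the other members 4 of 10 long and 2 of 21 short ones were higher in Sod1G86R CSN, with medians of 0.37 and 0.25. The cut was chosen after the data had been seen, and several members lie close to it. Ndufs8 (1005 bases), Ndufs3 (1046) and Ndufb5 (1079), all called, are just above it. Ndufs7 (983, called) and Ndufb4 (971, not called) are just below, so the counts depend on where the cut is set.

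**Figure D3:**
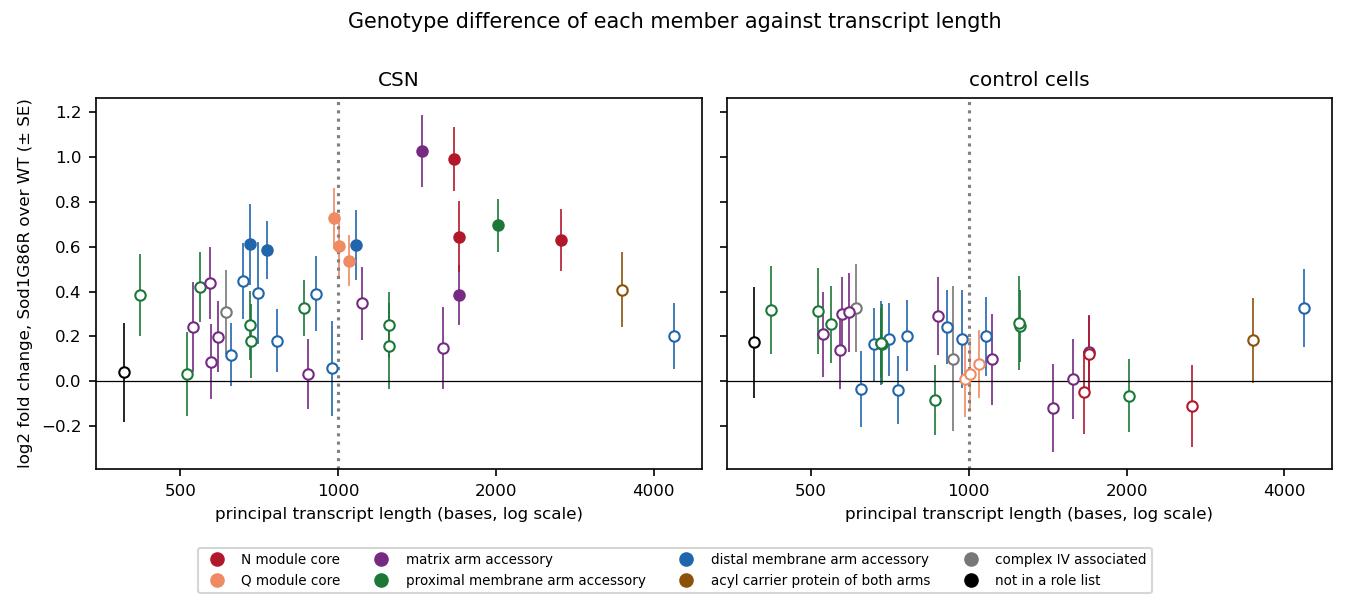
The log2 fold change (± SE) of Sod1G86R over WT is plotted against the length of the principal transcript (bases, log axis) for complex I genes in CSN (left) and control cells (right), with a dotted line at 1000 bases and filled points for an adjusted p under 0.05. In CSN most of the filled points lie to the right of the line, and control cells have none.

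Taken age by age in CSN, members passed the threshold at 90 days, where 3 were higher and none lower, with 3.48% of all genes higher and 1.38% lower. Ndufv1 had 12116, 10722, 9379 and 8666 normalised counts in the 4 Sod1G86R libraries of that age, against 6103, 5940, 3549 and 4486 in the 4 WT libraries, a log2 fold change of 1.04 (SE 0.263, adjusted p = 0.0263 by limma). Ndufa9 had 17176, 14269, 13850 and 7432 in Sod1G86R, against 6652, 6558, 4173 and 5683 in WT, a log2 fold change of 1.15 (SE 0.299, adjusted p = 0.0297). Ndufs1 had 12869, 11794, 10909 and 7060 in Sod1G86R, against 5622, 6375, 4401 and 3963 in WT, a log2 fold change of 1.05 (SE 0.258, adjusted p = 0.0247). For all 3 genes the groups of 4 did not overlap, and the share of all genes without overlap is not given. These 3 genes were named because they passed the test on these libraries, so the separation adds no support. Each lost its call in 5 of the 29 runs that left out 1 library, and over those runs 0 to 5 members were called.

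At 30, 60 and 105 days no member was called in CSN, either by limma or by edgeR's quasi-likelihood test. At these ages 12, 8 and 8 members had an unadjusted limma p under 0.05, without a share of all genes at that level. The members' median log2 fold changes were 0.45, 0.42, 0.12 and 0.48 at 30, 60, 90 and 105 days. Of all genes 0.0105% were higher at each of 30, 60 and 105 days, and 0.00524%, 0.0210% and 0.0105% were lower. Ndufv1 counts at 60 days were 13093, 5509, 6445 and 9844 in Sod1G86R CSN, against 4117, 4768, 4229 and 6093 in WT CSN, which overlap. At 105 days the 2 Sod1G86R libraries had 11134 and 10729 and the 4 WT libraries 7235, 4990, 4783 and 6753, without overlap. The share of all genes without overlap at that age is not given. Ndufv1 was named for its genotype difference over all ages, so this separation adds no support. A test of whether the genotype difference changed with age (90 and 105 against 30 and 60 days) called no member in CSN by limma or edgeR, none of them with an unadjusted p under 0.05.

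In control cells the same genotype comparison called no member by limma, edgeR or DESeq2, and none had an unadjusted limma p under 0.05. Log2 fold changes averaged over ages ran from -0.12 for Ndufa9 to 0.33 for Ndufb2, with a median of 0.17, and 0.0143% of 20944 genes were higher and 0.0573% lower. Ndufv1 had a lowest, median and highest count of 3351, 7006 and 10667 in Sod1G86R control cells, against 2534, 6873 and 13027 in WT control cells, which overlapped across their range. By age no member was called at 30, 60, 90 or 105 days by limma or edgeR. Of all genes 0.00955%, 0.105%, 0.00955% and 0.00955% were higher at these ages. Of the members 0, 17, 0 and 2 had an unadjusted limma p under 0.05, again without a share of all genes at that level. The median at 60 days was 0.75, where 1.29% of all genes were lower and WT had 2 libraries.

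The difference of the Sod1G86R effect between the cell types was tested directly, as CSN minus control cells. It was positive past the threshold for 7 members and negative for none, with 3.84% of 22032 genes higher and 2.42% lower. Among them were Ndufv1 (difference of log2 fold changes 1.04, SE 0.237, adjusted p = 0.0139 by limma), Ndufa9 (1.15, SE 0.261, adjusted p = 0.0139), Ndufa10 (0.76, adjusted p = 0.0244), Ndufs7 (0.72, adjusted p = 0.0385), Ndufs1 (0.74, adjusted p = 0.0464) and Ndufb10 (0.62, adjusted p = 0.0476). Left out 1 at a time, 35 of the 57 libraries each ended the call of Ndufs1 and 35 that of Ndufb10, 23 that of Ndufs7 and 3 that of Ndufa10. The median over the members was 0.17, against -0.03 over all genes. Leaving out 1 library gave 2 to 8 members, with Ndufv1 and Ndufa9 called each time, and leaving out the 60-day libraries gave none (Ndufv1 0.69, adjusted p = 0.311; Ndufa9 1.01, adjusted p = 0.189).

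The mt-Nd genes moved in the opposite direction in that test, with 5 of 6 lower, led by mt-Nd4 (-1.15, adjusted p = 0.0178) and mt-Nd6 (-1.34, adjusted p = 0.0185). No nuclear member was called once the mitochondrial share entered the fit, a share that did not overlap between the cell types in WT. Of complexes II to V 9 of 38 genes were higher and none lower, led by Sdha (1.23, adjusted p = 0.00410), the catalytic subunit of complex II. No assembly factor was called by limma. Of the 15, 8 had an unadjusted limma p under 0.05, a level for which no share of all genes is given, so no enrichment can be read from that count.

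Set against control cells of the same genotype, CSN differed in individual members rather than as a block. In Sod1G86R mice 10 members were higher and 2 lower in CSN, with 24.9% of all genes higher and 30.6% lower. In WT mice 4 were higher and 7 lower, with 26.8% of genes higher and 29.5% lower. Medians over the members were 0.21 in Sod1G86R and -0.10 in WT. These shares are near or below the background.

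Ndufa10 was higher in CSN of both genotypes. Its lowest, median and highest counts were 11705, 17940 and 24000 in Sod1G86R CSN, against 3355, 8634 and 15885 in Sod1G86R control cells (log2 fold change 1.14, SE 0.144, adjusted p = 4.04e-09 by limma). In WT CSN they were 7234, 11540 and 16820, against 6200, 8512 and 11313 in WT control cells (log2 fold change 0.38, SE 0.137, adjusted p = 0.0166). In both genotypes the ranges overlapped. Ndufs5 was likewise higher in both, by 0.43 in Sod1G86R (adjusted p = 0.0218) and 0.35 in WT (adjusted p = 0.0476), but the WT call was lost when any one of 21 of the 57 libraries was left out (adjusted p up to 0.141) and the Sod1G86R call without either of 2. Ndufb10 (0.64, adjusted p = 0.000186) was called in Sod1G86R, and in WT it had 0.02 (adjusted p = 0.914).

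Ndufv1 and Ndufa9 had opposite signs in the 2 genotypes, which is the same contrast as the direct test above. Ndufa9 was 0.56 higher in CSN than in control cells of Sod1G86R mice (adjusted p = 0.0114 by limma) and was lower in WT mice (log2 fold change -0.59, adjusted p = 0.00459). The WT value turned to 1.08 (adjusted p = 0.0323 by limma) when the mitochondrial share entered the fit, so its direction depends on that setting. In WT that share did not overlap between the cell types, with 5.68% to 18.1% in CSN and 0.811% to 2.55% in control cells. It is therefore confounded there with cell type, and the value of 1.08 reaches across that gap. For Ndufv1 the values were 0.54 (adjusted p = 0.00732) in Sod1G86R and -0.50 (adjusted p = 0.00722) in WT. Ndufs1, Ndufs8 and Ndufs4 were lower in CSN of WT mice (-0.51, -0.50 and -0.41), whereas Ndufa5 (0.63, adjusted p = 0.00103) and Ndufa3 (0.59, adjusted p = 0.00689), both short transcripts, were higher. Ndufc1 had 0.42 in WT (adjusted p = 0.0693).

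Members lower in CSN of both genotypes were Ndufa7, a matrix arm subunit (-0.55 in Sod1G86R, adjusted p = 0.0196, and -0.59 in WT, adjusted p = 0.00886), and Ndufa4l2. When the mitochondrial share entered the fit, Ndufa7 was called in neither genotype, with -0.21 in Sod1G86R (adjusted p = 0.639 by limma) and 0.0022 in WT (adjusted p = 0.998). In WT that share did not overlap between the cell types and is confounded with cell type. In Sod1G86R it overlapped only narrowly (3.26% to 10.6% in CSN, 1.01% to 3.78% in control cells) and is largely confounded there too. Without that covariate, the Sod1G86R call of Ndufa7 was lost when either of 2 libraries was left out (adjusted p up to 0.0753 by limma). Counts of Ndufa4l2 were 0 to 29.6 in Sod1G86R CSN against 2.99 to 450.6 in Sod1G86R control cells, and 0 to 55.1 in WT CSN against 2.01 to 441.5 in WT control cells. Its log2 fold changes were -1.93 in Sod1G86R (adjusted p = 1.72e-08) and -1.75 in WT (adjusted p = 3.73e-08), on a scale where the added 34.6 compresses so low a gene. Ndufa4l2 met the rule of 35 in at least 3 libraries only through control cells, where it is high. Its lower level in CSN was thus favoured by its selection, and these p-values add no support for it. In CSN its counts lay below 35 in most libraries, while its paralogue Ndufa4 had medians of 25194 in Sod1G86R and 20203 in WT CSN.

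**Figure D4:**
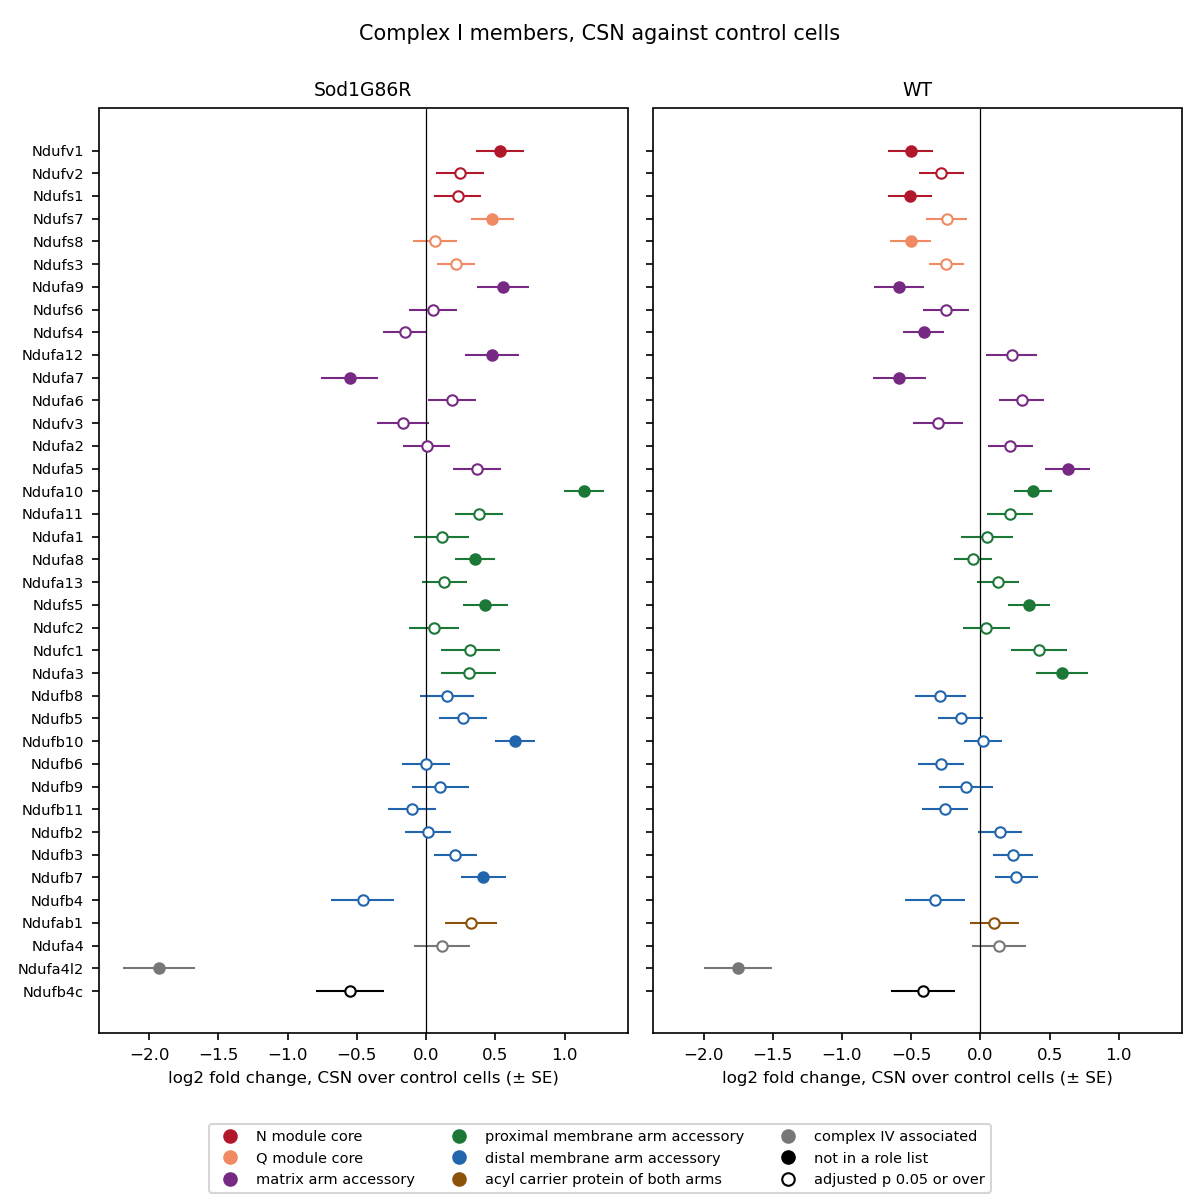
The log2 fold change (± SE) of complex I genes is plotted for CSN over control cells in Sod1G86R mice (left) and WT mice (right), coloured by role, with filled points for an adjusted p under 0.05. Ndufa10 is right of 0 and Ndufa4l2 far left of 0 in both panels, and Ndufv1 and Ndufa9 lie on opposite sides, at 0.54 and 0.56 in Sod1G86R and at -0.50 and -0.59 in WT. Ndufa4l2 met the level rule only through control cells. The WT value of Ndufa9 turned to 1.08 with the mitochondrial share in the fit, a share that did not overlap between the cell types in WT.

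The mitochondrially encoded subunits were higher in CSN, 6 of 6 tested in each genotype, with median log2 fold changes of 1.68 in Sod1G86R and 2.76 in WT. Counts of mt-Nd1 had medians of 435629 in Sod1G86R CSN against 100905 in Sod1G86R control cells, and of 606630 in WT CSN against 82922 in WT control cells. The ranges overlapped narrowly in Sod1G86R (lowest CSN 217301, highest control cells 221312) and were apart in WT. Among the regulators, Ppargc1a, a coactivator of mitochondrial biogenesis, was higher in CSN by 1.91 in Sod1G86R (adjusted p = 5.31e-13) and 2.28 in WT (adjusted p = 2.42e-16), and its nuclear receptor partner Esrra by 1.49 and 1.75. Nrf1 and Gabpa, transcription factors of nuclear respiratory genes, were lower in CSN of WT mice (-0.81, adjusted p = 0.000507, and -0.92, adjusted p = 4.16e-05).

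Age was compared as 90 and 105 against 30 and 60 days within each group. In WT control cells 22 members were higher at the later ages and 2 lower, with 3.36% of all genes higher and 8.75% lower, and the median log2 fold change was 0.79, against -0.01 over all genes. The higher ones included 6 of 9 in the matrix arm accessory group, 7 of 9 in the proximal and 6 of 10 in the distal membrane arm, and none of the 7 N and Q module core genes. Ndufc1, a small membrane arm subunit, rose by 1.41 (SE 0.302, adjusted p = 0.00457 by limma). Its counts were 6404, 12089, 3689 and 5400 at 90 days and 4303, 3295, 11119 and 11890 at 105 days, against 2658, 2386, 3198 and 4153 at 30 days and 1702 and 2119 at 60 days. Ndufa5 rose by 1.22 (adjusted p = 0.00352) and Ndufa4 by 1.32 (adjusted p = 0.00462). Ndufv1 went the other way (-0.83, adjusted p = 0.0413), as did Ndufa4l2 (-1.54, adjusted p = 0.0317), but Ndufv1 lost its call in 9 and Ndufa4l2 in 8 of the 28 runs that left out 1 library.

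This age difference rested on few libraries. The 60-day WT control cell group had 2 libraries, whose glial marker score was 14.4 and 14.5, above the 11.2 to 13.7 of the other WT control cell libraries. Without replicate 1 of that group 1 member was called, without replicate 2 there were 12, without the 105-day replicate 13 there were 15, and without all 60-day libraries there was none. No member was called when the mitochondrial share entered the fit. Among members up to 1000 bases the median was 0.81 (n = 23) and among longer ones 0.57 (n = 16), while other genes had 0.25 (n = 924) and -0.15 (n = 15135).

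In the other groups no member was called for age by limma or edgeR, and 0% of all genes were called in either direction. All 39 members had a fold change above 0 at the later ages in Sod1G86R control cells, against 47.7% of all genes. The members' median was 0.56. Of the members 25 had an unadjusted limma p under 0.05, a level for which no share of all genes is given here. In Sod1G86R CSN the median was 0.25, with 1 unadjusted p under 0.05. In WT CSN it was 0.40, with 15 such members. The test of whether age acted differently by genotype called no member in control cells by limma or edgeR, where 4 had an unadjusted p under 0.05, although 1 was called without the 105-day WT replicate 12.

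**Figure D5:**
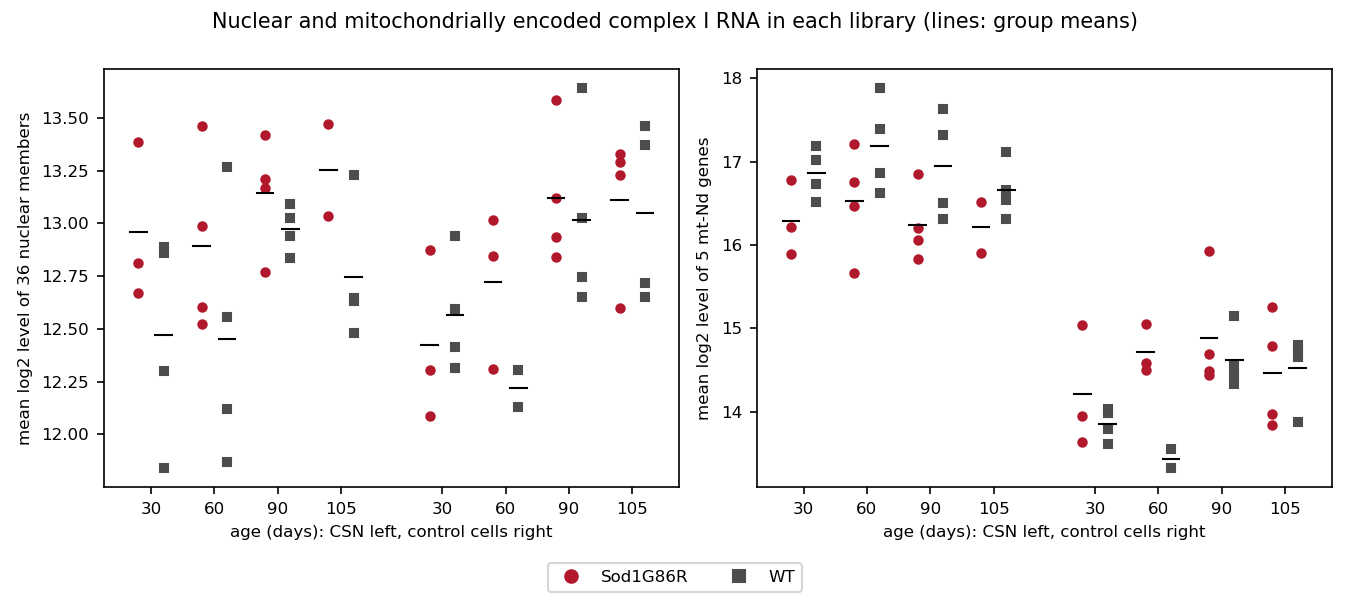
The mean log2 level of 36 nuclear complex I genes (left panel) and of 5 mt-Nd genes (right panel) is shown for each library by age in days, CSN on the left and control cells on the right of each panel, with lines for group means. For the nuclear genes the WT control cell means run from 12.22 at 60 days to 13.05 at 105 days, and for the mt-Nd genes the lowest CSN library, at 15.67, lies just below the highest control cell library, at 15.92.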

How the data were processed

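RNA was measured in 57 libraries of 16 groups. Per the labels' protocols and the series' design text, Trizol was used to extract RNA, a SMART-Seq v4 kit (unstranded) for cDNA and Nextera XT for libraries. The authors then mapped paired reads on GRCm38 by STAR 2.7.0, whose gene counts used Ensembl annotation 87. The submitters' processing notes also name edgeR and mm10. The deposited table holds signal values, normalised counts of 45337 genes, by a method not given in the sources used here. Dividing a library's values by its smallest step gave whole read counts (100% within 0.001). Precision is limited by the 2 to 4 libraries of a group, and reads carry no molecular identifiers.

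Genes at or above 34.6 (1e-06 of the median library total) in 3 or more of the fitted libraries were kept. limma 3.58.1 (R 4.3.3) was run on log2(value + 34.6) (trended, robust prior, 1 coefficient per group), for CSN, for control cells and for both together, with Benjamini-Hochberg adjustment over all genes and a threshold of 0.05. A fold change on this scale understates that of low genes. Counts at an unadjusted p under 0.05 are given without the share of all genes at that level. edgeR 4.0.16 and DESeq2 1.42.0 were run on the recovered reads as alternatives, and the procedure was tested on simulated data. By rule the text names, in the CSN genotype comparison, the members with the 2 smallest and the largest p in each role, with Ndufa4, Ndufa4l2 and Ndufab1; in CSN against control cells of WT, the 3 largest fold changes per direction; and elsewhere up to 3 members per direction with the smallest p among those called. Other members were named after their values were seen. Lengths are those of the principal transcript in the reference annotation of GRCm38, and promoter windows those of RefSeq. Ndufb4c has no principal transcript and was given its exonic length of 390 bases. Genes outside the members without a principal transcript were left out of the length division. The same animal gave both cell types in 25 cases. Deviations of these pairs from their group means had correlations of -0.318 to 0.282 (median 0.0385), and the animal as a block is an alternative. Members, lists and tests were chosen with earlier results of these data known and the 1000-base length division and the left-out ages after these data had been seen again. Values of 1 member are not reported here and it is left out of the figures, though counts and medians over the members include it.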

Additional observations from a re-analysis of the deposited data

Results flagged for a closer look

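Of 110 groups of 4 libraries examined for 1 value apart from the rest, in 6 a value stood apart, near the 5% that chance gives. In control cells of 105-day WT mice, Ndufs7 was 12320 in replicate 12 and 9842 to 10042 in the others. In CSN of 105-day WT mice, Ndufb10 was 11502 in replicate 13 and 7411 to 7786 in the others. In CSN of 30-day WT mice, replicate 4 had 6537 for Ndufa9, against 3235 to 3731, and 55.1 for Ndufa4l2, against 1.13 to 4.17. In CSN of 90-day WT mice, replicate 9 had 44.3 for Ndufa4l2, against 0 to 1.45. In control cells of 105-day Sod1G86R mice, the mean log2 level of 36 members was 12.60 in replicate 13 and 13.23 to 13.33 in the others.

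The Sod1G86R effect differed between CSN and control cells by the direct test for 7 members. The difference of log2 fold changes was 1.15 for Ndufa9, 1.04 for Ndufv1, 0.76 for Ndufa10, 0.74 for Ndufs1, 0.72 for Ndufs7 and 0.62 for Ndufb10. Single left-out libraries ended the calls of Ndufs1 and Ndufb10 in 35 of 57 cases each and that of Ndufs7 in 23. None of the 7 was called once the 60-day libraries were left out.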

How the results depend on the processing

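Counts of called members under other settings are given where they moved by over 1.5 times. In Sod1G86R against WT CSN over all ages, 13 members became 21 with array weights and 0 with a mitochondrial share covariate, and 11 to 22 when 1 library was left out, with 22 only without replicate 7 of 60-day WT. The other settings gave 9 to 18. At 90 days 3 became 0 without a filter, 1 with quantile normalisation, 0 with the mitochondrial covariate and 5 with the replicate block. Leaving out 1 library gave 0 to 5 there, moved by replicates 3, 5, 6 and 8 of 90-day Sod1G86R, replicates 7 and 9 of 90-day WT and replicate 1 of 60-day Sod1G86R. At 30 days it gave 0 to 2, with 2 without replicate 4 of 30-day WT. For the difference between cell types 7 became 3 without a filter, 1 with quantile normalisation, 2 with values scaled to nuclear genes, 0 with the mitochondrial share or the number of detected genes as a covariate, and 0 without the 60-day libraries. Leaving out 1 library gave 2 to 8 there. The count was 2 to 4 without any one of 21 libraries, and 2 without replicate 13 of 105-day Sod1G86R CSN, replicate 6 of 30-day Sod1G86R CSN or replicate 1 of 60-day WT control cells.

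For age in WT control cells 24 became 15 without a filter, 0 with the mitochondrial covariate, 0 without the 60-day libraries and 1 to 30 when 1 library was left out. In control cells at 60 days quantile normalisation called 7 members, and leaving out 1 library gave 0 to 1 for genotype by age, with 1 without replicate 12 of 105-day WT. In CSN against control cells of WT mice quantile normalisation gave 19 (13 higher, 6 lower), the mitochondrial covariate gave 6, and leaving out 1 library gave 10 to 13, while Sod1G86R mice gave 9 to 14. The mitochondrial covariate also turned Ndufa9 to 1.08 and Ndufa7 to 0.0022 in WT, where it is confounded with cell type. The cause of these shifts was not tested.

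Signs turned for members near 0 in the CSN genotype comparison. Under quantile normalisation the log2 fold change was -0.0053 for Ndufa4, -0.054 for Ndufb4, -0.22 for Ndufa5 and -0.18 for Ndufa3. For Ndufb4, Ndufa5, Ndufb4c and Ndufa3, in that order, scaling to nuclear genes (which moves the median of all genes to -0.19) gave -0.13, -0.16, -0.13 and -0.16, the mitochondrial covariate -0.27, -0.20, -0.23 and -0.18, the library number as a covariate -0.00045, -0.011, -0.035 and -0.025, edgeR -0.044, -0.033, -0.034 and -0.050, and DESeq2 -0.027, -0.016, -0.018 and -0.034. Without the 105-day libraries Ndufa5 had -0.076, Ndufb4c -0.018 and Ndufa3 -0.050. Leaving out 1 library gave -0.040 to 0.11 for Ndufa3, -0.029 to 0.11 for Ndufa5, -0.017 to 0.15 for Ndufb4 and -0.057 to 0.14 for Ndufb4c.

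Animals of the 2 genotypes share replicate numbers but are different animals. Pairs with the same number deviated together with a correlation of -0.0464 to 0.483 in CSN (9 pairs, 5 over 0.1) and -0.158 to 0.412 in control cells (7 pairs, 2 over 0.1). With the number as a block 17 members were called in CSN over all ages and 24 for age in WT control cells, and with the animal as a block 7 for the difference between cell types. Apart from the 90-day count above, the block moved no other count by over 1.5 times. Groups of 2 to 4 libraries limit the comparisons within 1 age, and low counts limit Ndufa4l2.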

Other observations

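The 39 complex I genes together took 1.02% ± 0.189 of the reads in Sod1G86R CSN (SD, n = 13) and 0.862% ± 0.224 in WT CSN (SD, n = 16). In control cells the shares were 0.986% ± 0.219 in Sod1G86R and 0.925% ± 0.344 in WT (SD, n = 14 each). Ndufab1-ps, a pseudogene copy of the acyl carrier protein gene that its suffix kept out of the members, had 4.45% ± 1.17 of the Ndufab1 count in Sod1G86R CSN (SD, n = 13) and 3.92% ± 0.787 in WT CSN (SD, n = 16).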
